A study of Mus musculus with 6 samples.

Results

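Neuronal and synaptic genes were followed through 6 preparations of choroid plexus epithelium, which makes cerebrospinal fluid, to see which arrays carried neuronal RNA and whether its amount went with genotype. The set holds 30 genes taken by name: a probe set belonged to it when its only symbol in the platform annotation was 1 of the 30 names. Of these, 29 genes were found, on 80 probe sets, among 18193 genes with a probe set of a single symbol, and Grin1, a glutamate receptor subunit, had no such probe set and was not analysed here. Each gene stands on its brightest probe set, and all 29 of those passed the filter on dim probe sets. The tissue came from whole brain of B10.PL mice, an inbred strain. By the descriptions 3 arrays were wild type (WT) and 3 were RAG-/-, mice that lack recombination-activating function and with it mature T and B cells. The labels used here name neither the RAG gene disrupted nor the age, sex or treatment of the mice, and do not say whether a preparation came from 1 animal or from a pool, so p-values measure the spread between these preparations, which may be partly technical. Each WT array shares a code in its title with a RAG-/- array, which gives pairs 1, 2 and 3, numbered as the replicates. In pair 1 the titles give the opposite genotype from the descriptions, which say that the samples were reversed. By title the RAG group is therefore WT replicate 1, RAG-/- replicate 2 and RAG-/- replicate 3.

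Neurons release transmitter when a calcium signal makes SNARE proteins on a synaptic vesicle and on the cell membrane zip together, and receptors held in a scaffold on the facing cell read the signal. Excitatory neurons load vesicles with glutamate through VGLUT transporters. Inhibitory neurons make GABA with glutamate decarboxylases and load it through VGAT. Choroid plexus epithelium is not neuronal tissue, but it is attached along the ventricle wall to brain tissue that is.

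Many neuronal genes are kept silent outside neurons by the repressor REST, which binds a long element known as RE1. RefSeq promoter windows of assembly GRCm38.p6, from 250 bases before to 50 bases after a start site, were matched by symbol for 20 of the 30 genes and gave 27 windows. The left part of RE1, TTCAGCACC, was searched on both strands and occurred in 1 of the 27 windows (3.70%), that of Syn1, and in 122 of all 32851 windows (0.371%). The right part, GGACAGC, which shares no letters of the element with the left, occurred in 3 of the 27 (11.1%), those of Gad2, Gria2 and Map2, and in 2155 of all windows (6.56%). Only exact matches were counted, so a part with a changed letter beside a match was not seen. Such a match is a run of letters and was not tested as a site. The windows of Syn1, Gad2 and Gria2, a vesicle protein, a GABA enzyme and a glutamate receptor subunit, are shown as examples that hold such a match. These genes were highest in RAG-/- replicate 2 and lowest in RAG-/- replicate 3, as was Map2, whose window is not shown. This does not set them apart, as 27 of the 29 genes were highest in the first array and 22 lowest in the second. The windows shown run 5′ to 3′ in the direction of the gene, with the match in capitals, which in Gria2 lies on the other strand. They are chrX:20920869-20921168 (minus strand), chr2:22622077-22622376 (plus strand) and chr3:80802786-80803085 (minus strand).
Syn1: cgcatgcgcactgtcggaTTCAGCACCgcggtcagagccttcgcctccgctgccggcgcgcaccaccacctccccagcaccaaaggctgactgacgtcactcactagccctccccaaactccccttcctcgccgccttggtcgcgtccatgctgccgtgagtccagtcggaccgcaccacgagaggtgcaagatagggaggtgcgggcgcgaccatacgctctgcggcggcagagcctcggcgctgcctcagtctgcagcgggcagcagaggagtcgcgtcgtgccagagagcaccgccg
Gad2: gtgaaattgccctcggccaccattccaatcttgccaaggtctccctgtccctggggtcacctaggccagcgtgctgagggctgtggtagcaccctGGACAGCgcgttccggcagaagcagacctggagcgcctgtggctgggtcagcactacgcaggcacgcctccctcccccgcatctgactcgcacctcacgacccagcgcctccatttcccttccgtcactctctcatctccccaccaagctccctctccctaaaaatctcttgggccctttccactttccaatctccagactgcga
Gria2: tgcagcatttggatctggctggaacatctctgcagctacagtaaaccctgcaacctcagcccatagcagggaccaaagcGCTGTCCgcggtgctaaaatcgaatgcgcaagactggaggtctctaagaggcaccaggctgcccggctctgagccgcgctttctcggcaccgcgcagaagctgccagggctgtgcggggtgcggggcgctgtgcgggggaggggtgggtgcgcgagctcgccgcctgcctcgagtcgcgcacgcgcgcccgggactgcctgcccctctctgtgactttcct
The median GC content of the 27 windows was 59.3%, against 52.7% over all windows.

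Levels are given as log2(intensity + 16) after quantile normalization, so they can be compared between arrays for 1 gene but not between genes. Deposited intensities had medians between 78.0 and 97.3 per array, and all arrays had a mean of 500.0 after trimming 2% at each end. RAG-/- replicate 2 stood apart over all probe sets, at 106 on the first principal component (48.4% of variance) where the other arrays lay between -69.3 and 31.2. Transthyretin (Ttr), the carrier protein that defines choroid plexus epithelium, measured 14.69 to 14.83 on the 6 arrays, and 12 of 14 listed epithelial markers were measured, none among the dim probe sets. The largest deposited intensities per array lay between 30015 and 39313. Ttr was thus near the top of the scale, and its narrow range does not show equal amounts of epithelium.

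Neuronal RNA was measured on every array and was most abundant in RAG-/- replicate 2. At least 27 of the 29 genes lay above the array's median over all probe sets on each of the 6 arrays. As the 29 are brightest probe sets that passed the filter, this count does not set neuronal genes apart from others. The mean level of the 29 genes was 10.05 in WT replicate 1 and 9.82 in RAG-/- replicate 1, 10.26 in WT replicate 2 and 11.53 in RAG-/- replicate 2, and 9.41 in WT replicate 3 and 8.96 in RAG-/- replicate 3. RAG-/- replicate 2 thus stood 1.83 above the mean of the other arrays, or 3.55-fold, and both arrays of pair 3 were the lowest. In 27 of 29 genes the highest array was RAG-/- replicate 2, against 25.4% of 13537 genes tested, and in 13 it led the next array by over 1 log2 unit, against 4.82% of all genes. In 22 of 29 the lowest array was RAG-/- replicate 3, against 16.2% of all genes. The exceptions at the top were Slc17a7 and Nrgn, highest in RAG-/- replicates 1 and 3. WT replicate 1 was highest in 0 of 29, against 10.6% of all genes, and RAG-/- replicate 2 lowest in 0 of 29, against 31.1%. The spread was wide, with a median range of 2.93 over the 6 arrays against 1.08 over all genes, from 1.14 for Grin2b to 4.89 for Stmn2. In bulk tissue more neurons and more neuronal RNA per cell cannot be told apart.

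**Figure D1:**
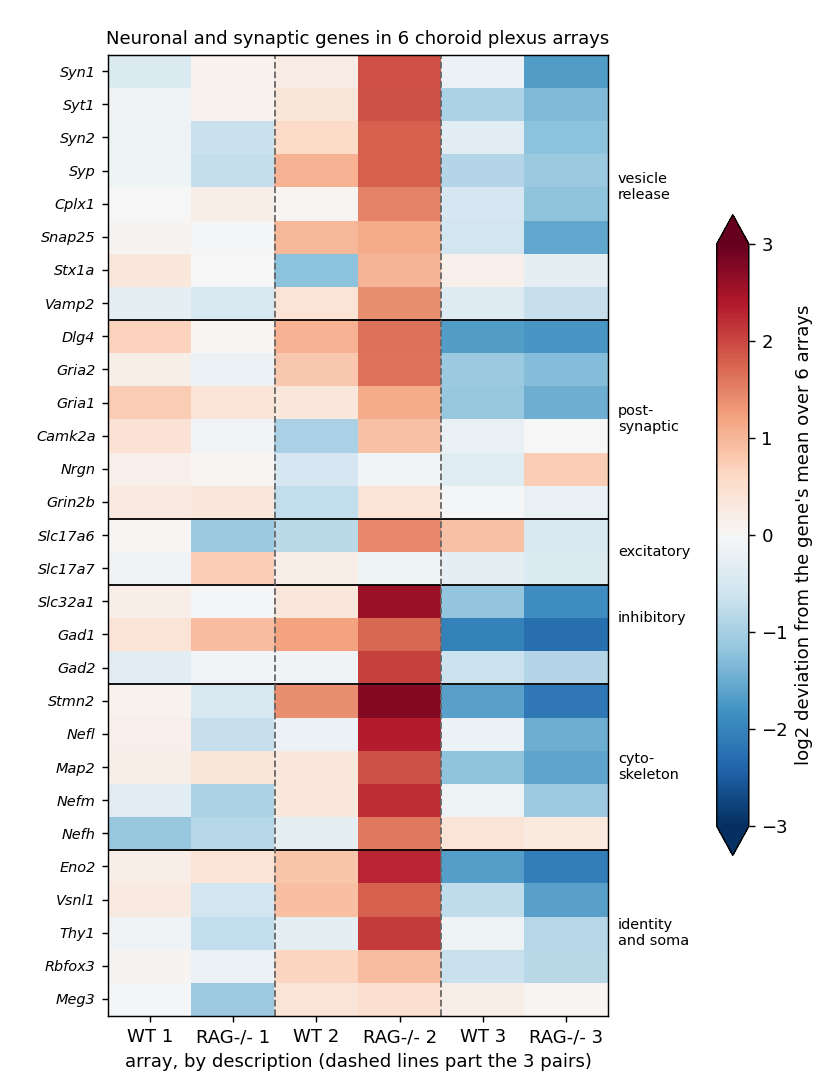
Deviation of each neuronal gene (rows, grouped by role) from its own mean over 6 arrays, in log2 units (colour), for each array (columns, in pairs). RAG-/- replicate 2 is the highest array in 27 of 29 rows, and both arrays of pair 3 lie below all other arrays in 16 rows, against 17% of all genes.

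The vesicle release genes shared their highest array, RAG-/- replicate 2, in 8 of 8, and 7 of 8 were lowest in RAG-/- replicate 3. Snap25, a SNARE protein of the cell membrane, was at 13.02, 13.94 and 12.37 in WT replicates 1, 2 and 3 and at 12.90, 14.05 and 11.38 in RAG-/- replicates 1, 2 and 3. Both arrays of pair 2 were high and both of pair 3 low, so the genotypes overlapped. As deposited, its intensity was 15032 in WT replicate 2 and 14766 in RAG-/- replicate 2, so the order within pair 2 turned with the normalization. Syt1, the calcium sensor of release, was at 11.98, 12.45 and 11.14 in WT and at 12.19, 13.99 and 10.77 in RAG-/- replicates 1, 2 and 3. Syn1, which tethers vesicles and whose window is shown above, was at 8.87, 9.50 and 9.11 in WT and at 9.40, 11.20 and 7.59 in RAG-/-. Both genes had their highest and their lowest array within the RAG-/- group. Syn2, a relative of Syn1, the vesicle membrane protein Syp, the vesicle SNARE Vamp2, the membrane SNARE Stx1a and Cplx1, which clamps SNARE complexes, had ranges between 2.09 and 3.02. Of these only Stx1a had its lowest array outside pair 3, in WT replicate 2.

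Of the postsynaptic genes 5 of 6 were highest in RAG-/- replicate 2, all but Nrgn. Dlg4, the scaffold of excitatory synapses, was at 9.01, 9.36 and 6.66 in WT and at 8.39, 9.98 and 6.58 in RAG-/- replicates 1, 2 and 3. Pair 3 lay below the other arrays by a wide step and the genotypes overlapped. Gria2, the AMPA receptor subunit that sets calcium permeability, was at 9.48, 10.12 and 8.20 in WT and at 9.14, 10.94 and 8.004 in RAG-/-, and its relative Gria1 had a range of 2.58. Both Gria genes were lowest in pair 3. Camk2a, a kinase abundant in forebrain excitatory neurons, was at 9.86, 8.45 and 9.19 in WT and at 9.34, 10.30 and 9.41 in RAG-/-. Nrgn, a calmodulin-binding protein of forebrain neurons, was at 7.71, 7.07 and 7.19 in WT and at 7.62, 7.50 and 8.32 in RAG-/-. Neither followed pair 3, and Nrgn was highest in RAG-/- replicate 3, the array with the lowest neuronal mean. Grin2b, an NMDA receptor subunit, stayed between 6.54 and 7.68.

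Cytoskeletal genes spread widely, and all 5 were highest in RAG-/- replicate 2. Stmn2, a regulator of axonal microtubules, was at 10.49, 11.78 and 8.78 in WT and at 9.91, 13.16 and 8.26 in RAG-/- replicates 1, 2 and 3. Nefl, the light neurofilament subunit of large axons, was at 11.41, 11.09 and 11.10 in WT and at 10.58, 13.63 and 9.81 in RAG-/-. For Nefl the 3 WT arrays lay close together and both extremes were RAG-/-. Nefm, the medium neurofilament subunit, had RAG-/- replicate 2 at 11.16 and the other arrays between 7.84 and 9.26. Nefh, the heavy subunit, had it at 10.74 and was lowest in WT replicate 1, at 8.03. The dendritic protein Map2 had it at 12.39 and the others between 8.91 and 10.84.

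Of the genes of neuronal identity and soma, Eno2, the neuronal enolase of glycolysis, was at 10.86, 11.49 and 8.99 in WT and at 11.07, 12.93 and 8.57 in RAG-/- replicates 1, 2 and 3. Vsnl1, a neuronal calcium sensor, was at 11.75, 12.39 and 10.72 in WT and at 10.92, 13.28 and 9.87 in RAG-/-. In both, the order of the pairs was the same and the genotypes overlapped. Rbfox3, the splicing factor known as NeuN, ranged from 10.80 to 12.57, and the surface protein Thy1 from 9.73 to 12.69. Meg3, an imprinted long noncoding RNA that is not restricted to neurons, was the least variable of these 5, from 10.44 to 12.02, and was lowest in RAG-/- replicate 1.

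In pair 3 Gad1 and Slc32a1 were low in both arrays, while Slc17a6 was high in WT replicate 3 but not in RAG-/- replicate 3. Slc17a6, the glutamate transporter VGLUT2 of brainstem and thalamus, was at 9.15, 8.30 and 9.997 in WT replicates 1, 2 and 3 and at 7.99, 10.55 and 8.66 in RAG-/- replicates 1, 2 and 3. It was high in RAG-/- replicate 2 and in WT replicate 3. A second, dimmer Slc17a6 probe set was at 8.03, 6.46 and 8.23 in WT replicates 1, 2 and 3. That probe set was at 6.09, 8.54 and 5.05 in RAG-/- replicates 1, 2 and 3, lowest in RAG-/- replicate 3. Slc17a7, the glutamate transporter VGLUT1 of cortex, hippocampus and cerebellar granule cells, was dim, at 5.95, 6.27 and 5.77 in WT and at 6.80, 5.94 and 5.64 in RAG-/-, and its mean at percentile 40.1 lay just above the filter on dim probe sets. Gad1, which makes most GABA, was at 12.21, 13.01 and 9.77 in WT and at 12.73, 13.53 and 9.53 in RAG-/-. Slc32a1, the vesicular GABA transporter VGAT, was at 9.53, 9.66 and 8.13 in WT and at 9.27, 11.91 and 7.48 in RAG-/-. Both inhibitory genes were lowest in pair 3 and highest in RAG-/- replicate 2. Gad2, the vesicle-bound GABA enzyme whose window is shown above, was at 8.88, 9.10 and 8.57 in WT and at 9.14, 11.28 and 8.33 in RAG-/-. It shared the highest array and the lowest pair, with a smaller drop in pair 3.

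As levels of different probe sets have no common scale, each gene was set against its own mean over the 6 arrays before the classes were compared. The mean deviation of Slc17a6 and Slc17a7 minus that of Gad1 and Slc32a1 was -0.34 and -0.62 in the WT and RAG-/- arrays of pair 1, -1.08 and -1.50 in those of pair 2, and 1.91 and 1.62 in those of pair 3. Pair 3 therefore stood 2.65 above the mean of the other arrays on this index. The size rested on the genes chosen: with Gad2 in place of Gad1 and Slc32a1 it was 1.05, with pair 3 at 0.95 and 0.45. With the wider excitatory and inhibitory subtype lists in place of the 4 genes it was 0.31, with pair 3 at 0.20 and 0.22 and WT replicate 2 highest, at 0.89. With Slc17a6 alone in place of both transporters the values were -0.26, -1.55, -1.58 and -0.71 in pairs 1 and 2 and 2.497 and 1.61 in pair 3. Slc17a7 itself had both arrays of pair 3 below the other 4. By description the index was 0.16 ± 1.56 (SD, n = 3) in WT and -0.16 ± 1.61 in RAG-/-, and by title 0.07 ± 1.61 and -0.07 ± 1.58 (SD, n = 3), so under either reading the groups overlapped and differed by far less than the spread within them.

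**Figure D2:**
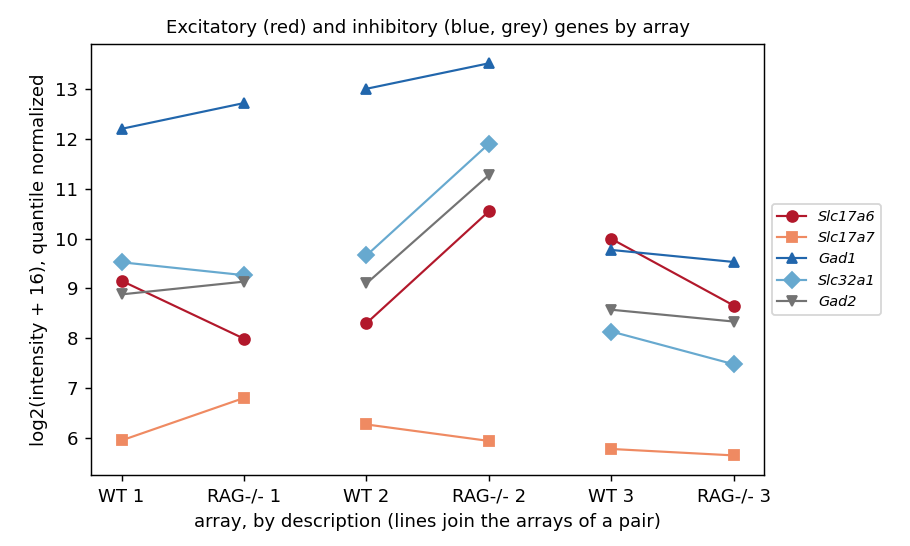
Levels of the glutamate transporter genes Slc17a6 and Slc17a7 and of the GABA genes Gad1, Slc32a1 and Gad2, as quantile normalized log2(intensity + 16), on each array, with lines joining the arrays of a pair. In pair 3 Gad1 lies at 9.77 and 9.53, against 12.21 to 13.53 elsewhere, while Slc17a6 in WT replicate 3 lies at 9.997, its second highest value.

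Other genes of axons and synapses mostly had the same highest array. Of 20 measured axon and soma genes all 20 were highest in RAG-/- replicate 2, of 22 presynaptic genes 19, and of 14 postsynaptic genes 10. The share over all 13537 genes tested was 25.4%. Of the presynaptic and postsynaptic genes 21 and 13 passed the filter on dim probe sets. Scn2a, a sodium channel, was at 9.88, 10.94 and 8.33 in WT and at 9.26, 11.64 and 6.99 in RAG-/- replicates 1, 2 and 3, and Elavl4, a neuronal RNA-binding protein, ranged from 6.88 to 11.43. Dnm1, the dynamin of vesicle recycling, ranged from 9.31 to 13.68, Nrxn3, a presynaptic adhesion protein, from 8.12 to 12.13, and the glutamate receptors Gria4 and Grm5 from 8.51 to 11.78 and from 7.04 to 9.75. All 6 genes had their highest value in RAG-/- replicate 2. They were named for the widest ranges in their lists, which favours genes high in that array, so this adds nothing to the counts above.

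Subtype genes had more than 1 highest array. Of 13 measured inhibitory subtype genes, 4 of them below the filter on dim probe sets, 6 were highest in RAG-/- replicate 1, against 16.2% of all genes tested. RAG-/- replicate 2 was highest in 5, against 25.4%. These shares cover only genes that passed the filter, so the counts are not strictly matched to them. Over the 9 tested, the median difference within pairs, RAG-/- minus WT by description, was 0.36, 1.41 and -0.48 in pairs 1, 2 and 3. Dlx1, a transcription factor of forebrain interneurons, was at 9.36 in RAG-/- replicate 1 and between 4.43 and 6.99 on the other arrays, lowest in RAG-/- replicate 2. Vip, a peptide of interneurons and of other neurons, was at 8.71, 4.94 and 6.92 in WT and at 9.01, 8.76 and 5.98 in RAG-/- replicates 1, 2 and 3. Of 12 excitatory subtype genes, 3 of them below the filter, 1 was highest in RAG-/- replicate 2, against 25.4% of all genes tested. The median differences within pairs over the 9 tested were -0.998, -0.23 and 0.015. Neurod1, abundant in cerebellar granule cells, was at 10.99, 12.94 and 7.81 in WT and at 8.97, 11.58 and 8.64 in RAG-/-. Nptx1, a secreted pentraxin of excitatory synapses, was at 9.90, 11.56 and 6.68 in WT and at 8.87, 10.54 and 6.77 in RAG-/-. For both, WT replicate 2 was highest and pair 3 lowest.

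Markers of brain regions and of other cells moved with the neuronal genes on some arrays, and their part in the neuronal levels was not tested. Values here are mean deviations from each gene's mean over the 6 arrays. The 4 of 5 serotonin neuron genes measured stood at 6.11 in RAG-/- replicate 2 and between -1.72 and -0.83 elsewhere. Among them Tph2, the brain enzyme of serotonin synthesis, named after its values were seen, was at 13.82 in that array and between 5.44 and 6.42 elsewhere. The cerebellar genes, 8 of 8 measured, stood at 2.09 in WT replicate 2, 1.24 in RAG-/- replicate 2 and 0.95 in WT replicate 1, and at -0.65, -2.22 and -1.41 in RAG-/- replicate 1, WT replicate 3 and RAG-/- replicate 3. The arrays with the lowest cerebellar values were thus also those of pair 3, with the lowest Gad1. The order of the other arrays differed. Gad1 was at 12.73 in RAG-/- replicate 1 and at 12.21 in WT replicate 1, and it was highest in RAG-/- replicate 2, at 13.53. Striatal genes (6 of 8 measured) stayed between -0.43 and 0.41, genes of thalamus and habenula (8 of 8) between -0.44 and 0.65 and genes of hippocampus and cortex (7 of 8) between -0.85 and 0.61, with 3 of 7 of the last among the dim probe sets.

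Glial genes followed only in part. The mean of the astrocyte genes (10 of 10 measured) was highest in RAG-/- replicate 2 (0.67), then in WT replicate 1 (0.49), and lowest in pair 3 (-0.52 and -0.66). Of the 10 genes 6 were highest in RAG-/- replicate 2. Gfap, the astrocyte filament, ranged from 8.46 to 10.57 and was lowest in WT replicate 2. Oligodendrocyte genes (11 of 12) stood at 1.03 in RAG-/- replicate 2 and at 0.98 in RAG-/- replicate 3, the array with the least neuronal RNA, and Mbp, a major myelin protein, was at 14.68 and 14.81 there. Choroid plexus epithelium genes were lowest in RAG-/- replicate 2 in 12 of 12, at -0.73, and stood between 0.05 and 0.28 elsewhere. In that array genes of fibroblasts and meninges (10 of 10) were at -1.35, endothelial genes (8 of 8) at -0.67, microglia and macrophage genes (8 of 8) at -0.26 and ependymal genes (6 of 6) at 0.03. RAG-/- replicate 2 therefore had the highest neuronal and the lowest epithelial and fibroblast means of the 6.

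**Figure D3:**
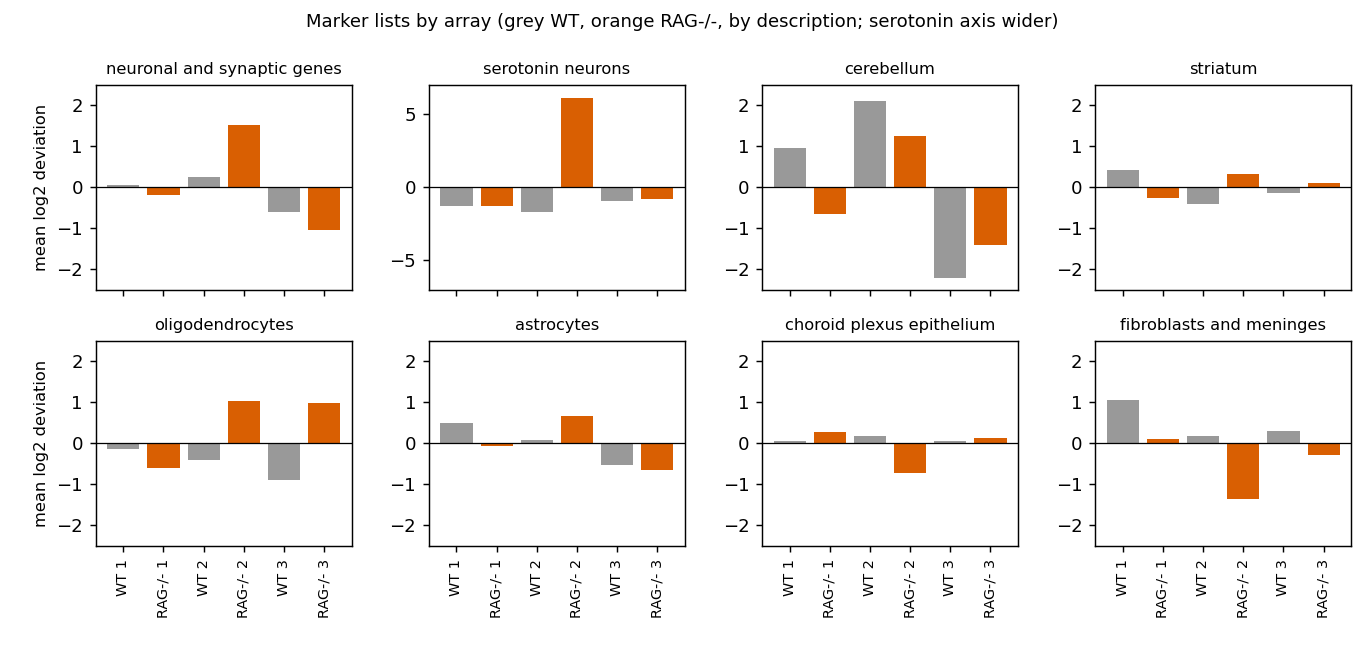
Mean log2 deviation of the genes of a list from their own means over 6 arrays (vertical axis), for each array (bars), with 1 panel per list and a wider axis for serotonin neurons. Serotonin neuron genes reach 6.11 in RAG-/- replicate 2, and cerebellar genes lie above 0 in WT replicate 1 and in both arrays of pair 2.

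By description, 0 of the 64 neuronal probe sets tested separated RAG-/- from WT past an adjusted p of 0.05 in limma, against 0% of 27022 probe sets, and 0 had an unadjusted p under that value, against 0.711%. The 29 genes had a mean of 9.91 ± 0.44 (SD, n = 3) in WT and 10.10 ± 1.31 in RAG-/-, a difference smaller than the spread within RAG-/-. The difference was above 0 in 21 of 29 genes, against 48.9% of all genes, and below 0 in 8, against 51.1%, with a median of 0.16 against -0.0070 over all genes. That direction rested on RAG-/- replicate 2: without it 6 of 29 were above 0 and the median was -0.62. With the pair as a block 0 of 64 passed in limma, and 1 had an unadjusted p under 0.05, a dimmer Gad1 probe set, against 2.35% of all probe sets. By the same reading oligodendrocyte genes were above 0 in 11 of 11 (median 1.08). Epithelial genes were below 0 in 12 of 12 (median -0.18) and fibroblast and meningeal genes in 10 of 10 (median -1.01), with 0 passing in limma. In pairs 1, 2 and 3 oligodendrocyte genes were higher in RAG-/- in 2, 11 and 11 of 11. Epithelial genes were lower in 2, 12 and 5 of 12, and fibroblast and meningeal genes in 9, 10 and 9 of 10. The part of these lists in the neuronal differences was not tested. None of the 29 neuronal genes had its 3 RAG-/- arrays all above or all below the WT arrays, against 1.69% and 1.41% of all genes.

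The genes with the smallest p by description were Nrgn, Camk2a and Gad2. Nrgn was at 7.33 ± 0.34 in WT and 7.81 ± 0.44 in RAG-/- (SD, n = 3), a difference of 0.49 (SE 0.35). Camk2a differed by 0.52 (SE 0.44) and Gad2 by 0.73 (SE 0.68), and the limma adjusted p was 1 for all 3. Of the classes, Slc17a6 differed by -0.09 (SE 0.69), Slc17a7 by 0.13 (SE 0.40), Gad1 by 0.26 (SE 1.11) and Slc32a1 by 0.44 (SE 0.996). These 4 differences were smaller than their standard errors. In the wider lists 0 genes passed in limma. Above 0 were 17 of 21 presynaptic genes tested (median 0.21), 4 of 13 postsynaptic (median -0.07) and 11 of 20 axon and soma genes (median 0.12). Inhibitory subtype genes were above 0 in 7 of 9 (median 0.36) and excitatory subtype genes in 1 of 9 (median -0.45). The share over all genes was 48.9%. In pairs 1, 2 and 3 presynaptic genes were higher in RAG-/- in 9, 20 and 3 of 21. Postsynaptic genes were higher in 4, 10 and 8 of 13, and axon and soma genes in 0, 20 and 3 of 20. For inhibitory subtype genes the counts were 6, 5 and 2 of 9, and for excitatory subtype genes 0, 2 and 5 of 9.

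Within pairs the neuronal genes went different ways. The median difference, RAG-/- minus WT by description, was -0.26 in pair 1, 1.38 in pair 2 and -0.38 in pair 3, against 0.030, -0.039 and -0.023 over all genes. In pair 2, 17 of 29 genes were higher in RAG-/- by over 1 log2 unit, against 10.1% of all genes, and 0 were lower by as much, against 7.23%. In pair 1, 2 genes, Slc17a6 and Meg3, were lower by over 1, against 3.96%, and 0 higher, against 1.53%. In pair 3, 3 genes were lower by over 1, namely Nefl, Slc17a6 and Syn1, against 2.37%, and 1 was higher, Nrgn, against 2.19%. Slc17a6 differed by -1.16, 2.25 and -1.34 in pairs 1, 2 and 3, Slc32a1 by -0.26, 2.24 and -0.66, and Gad1 by 0.52, 0.51 and -0.24. Gad1 was thus higher in the RAG-/- array of pairs 1 and 2, and its lower values in pair 3 were common to both genotypes.

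**Figure D4:**
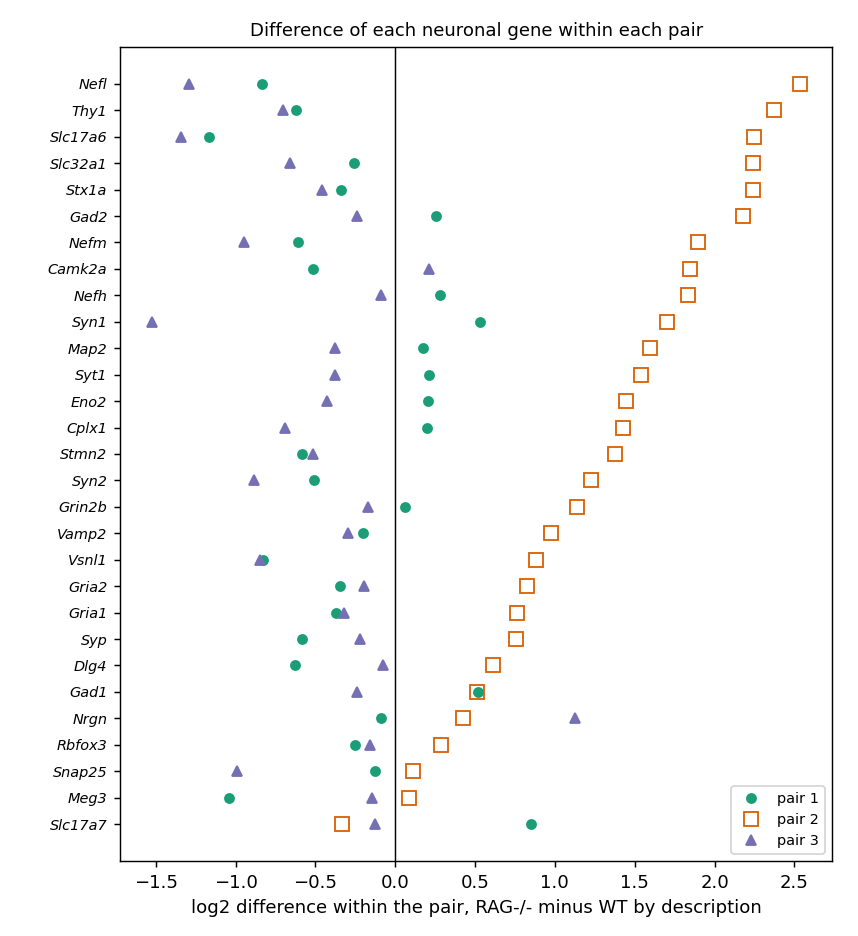
Log2 difference, RAG-/- minus WT by description (horizontal axis), of each neuronal gene (rows) within pair 1 (circles), pair 2 (open squares) and pair 3 (triangles). Pair 2 lies to the right of 0 for all genes but Slc17a7, with a median of 1.38, while pairs 1 and 3 have medians of -0.26 and -0.38. By title the circles change sides.

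By title, where pair 1 turns, 0 of 64 neuronal probe sets passed in limma, against 0% of all probe sets, and 1 had an unadjusted p under 0.05, against 1.23%. The mean of the 29 genes was 9.83 ± 0.43 (SD, n = 3) in the arrays titled B10 and 10.18 ± 1.29 in those titled RAG. The difference was above 0 in 25 of 29 genes, against 46.1% of all genes, and below 0 in 4, against 53.9%, with a median of 0.33 against -0.025. Oligodendrocyte genes were above 0 in 11 of 11 by title (median 1.24), where 11 had an unadjusted p under 0.05 in limma and 0 passed. Epithelial genes were below 0 in 11 of 12 (median -0.38), but in pair 3 alone they were lower in 5 of 12. The part of both lists in the neuronal direction was not tested. Without RAG-/- replicate 2 that direction too turned, to 6 of 29 and a median of -0.41, and without WT replicate 3 the count was 15 of 29. The gene with the unadjusted p was Camk2a, at 8.995 ± 0.47 and 9.86 ± 0.45 (SD, n = 3), a difference of 0.86 (SE 0.37; limma adjusted p = 1). With the pair as a block 0 of 64 passed, against 0.0037% of all probe sets, and Camk2a alone had an unadjusted p under 0.05, against 4.14%. It was also the only 1 of 29 whose 3 arrays titled RAG lay above the other 3, against 2.2% of all genes, and 0 lay below, against 2.53%. Nrgn differed by 0.55 (SE 0.34) and Stx1a by 0.71 (SE 0.48), also with a limma adjusted p of 1. Slc17a6 differed by 0.69 (SE 0.64), Slc17a7 by -0.44 (SE 0.38), Gad1 by -0.08 (SE 1.12) and Slc32a1 by 0.61 (SE 0.99).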

How the data were processed

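Total RNA of 6 preparations was measured on 1 single-colour array each. The deposited table held linear intensities for 45101 probe sets, and each array had a trimmed mean of 500.0. How the authors made these intensities is not given in the sources used here. After 64 control probe sets were dropped, intensities were quantile normalized as log2(intensity + 16), which understates changes of dim probe sets. Probe sets in the lowest 40% of mean value were removed, leaving 27022 probe sets and 13537 genes, each on its brightest probe set. Of 45037 probe sets the platform annotation gave 34945 a single symbol, 932 several and 9160 none. All 29 genes found matched the GRCm38.p6 gene table by gene number.

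Groups were compared with limma 3.58.1 (lmFit and a trended eBayes, R 4.3.3), adjusting two-sided p-values by Benjamini-Hochberg over the 27022 probe sets, at a threshold of 0.05. The fit was also run on simulated data with independent noise and no pairs. These arrays are paired, so that run does not gauge its error here. Within the pairs set by the title codes, deviations from group means had correlations of 0.29, 0.39 and 0.58, so the codes were taken to pair the samples. Members and lists were chosen with earlier results of these data known. Named in detail are the excitatory and inhibitory genes, Snap25, the 2 widest-ranging genes of each other role and of each wider list, and the 3 genes with the smallest p of each reading. The alternatives were values as deposited, a common median, pseudocounts of 1 and 64, no filter, array weights, the mean of all probe sets of a gene, the pair as a block, and leaving out each array.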

Additional observations from a re-analysis of the deposited data

How the results depend on the processing

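The count of probe sets past the threshold by description was 0 under all 7 settings that kept every array, and between 0 and 4 without single arrays, with 4 without RAG-/- replicate 2. By title it was 0, but 1 with the pair as a replicate block and 2 with array weights, and 0 without each single array. Neuronal probe sets past the threshold numbered 0 under all of these settings and both readings, the replicate block included. The count of genes above 0 by description was 21, but 13 with array weights (median -0.15), and between 6 and 28 without single arrays. By title the count was 25, 19 with array weights, and between 6 and 28 without single arrays, with 15 without WT replicate 3. The median differences without single arrays ran from -0.62 to 0.74 by description and from -0.41 to 1.05 by title. The count of genes highest in RAG-/- replicate 2 stayed between 24 and 27 and its lead over the other arrays between 1.61 and 1.97. Slc17a7 fell below the filter, leaving 28 genes, without RAG-/- replicate 1, without WT replicate 2 and with a pseudocount of 64. The index shift of pair 3 stayed between 2.41 and 2.84 under the processing settings and without single arrays. With other genes, chosen after seeing the data, it was 3.08 with Slc17a6 alone, 1.05 with Gad2 in place of Gad1 and Slc32a1 and 0.31 with the wider subtype lists. With 3 arrays per group the median standard error of a difference by description was 0.72, which limits the differences these arrays can show.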

Other observations

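Probe sets of the same gene did not always share a pattern. Of 35 further neuronal probe sets that passed the filter, 29 were highest in RAG-/- replicate 2, as were 27 of the 29 brightest. The 6 others belonged to Camk2a, Grin2b (2), Meg3 and Rbfox3 (2), named after their values were seen. The second Camk2a probe set was at 7.66, 6.13 and 6.21 in WT replicates 1, 2 and 3 and at 7.89, 6.77 and 5.99 in RAG-/- replicates 1, 2 and 3, and did not part the arrays by title. Of the 16 neuronal probe sets below the filter, 5 were highest in RAG-/- replicate 2.

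The second Gad1 probe set was at 7.82, 8.65 and 4.81 in WT and at 8.74, 9.40 and 6.05 in RAG-/- replicates 1, 2 and 3. Like the brightest it was lowest in pair 3. By description it was higher in the RAG-/- array of each of the 3 pairs, by 0.97 on average (SE 0.25 with the pair as a block, limma adjusted p = 1). It was the 1 of 64 neuronal probe sets with an unadjusted p under 0.05 in that fit, against 2.35% of all probe sets. By title, where pair 1 turns, it differed by 0.36 (SE 0.42 with the block). Both of its pair 3 values lay below 6.06, the mean level at which the filter on dim probe sets cut. The brightest Gad1 probe set differed by 0.26 by description (SE 0.21 with the block). Among the 11 Meg3 probe sets the range over arrays ran from 1.38 to 3.41, the widest having RAG-/- replicate 2 at 11.77 and the other arrays between 8.36 and 10.28.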
